A study of Mus musculus with 6 samples.

Results

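The S100 genes of lymphocytes were followed in splenic NK cells that were sort-purified from female mice of strain C57BL/6. One set of mice had received IL-15 cytokine complexes (IL-15C) and was compared with mice that had received IL-2 cytokine complexes (IL-2C). Binding to a carrier protein makes a cytokine act longer in the animal. Each treatment had 3 libraries. The sort gate was NK1.1+, NKp46+, CD3- and CD1d tetramer-; dose, time, age of the mice and whether animals were pooled are not in the labels. Untreated cells were not analysed here, so a change is always between these 2 treatments. The 7 genes S100a1, S100a3, S100a4, S100a6, S100a10, S100a11 and S100a13 were taken by name from 24333 genes. The tables list 18 genes whose name starts with S100; S100a8 and S100a9, the granulocyte members, were set aside and serve below as markers. Of the 7, 6 had a mean of at least 1 FPKM and were tested, and S100a3 did not reach that level.

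S100 proteins are small calcium-binding proteins that carry a pair of EF-hand motifs and mostly act as dimers. On binding calcium they expose a surface for partner proteins such as annexins and cytoskeletal motors. S100A10 is an exception, since it does not bind calcium and forms a standing complex with annexin A2 at membranes. In T cells, S100a4, S100a6, S100a10 and S100a11 are known as genes that are higher in effector and memory cells than in naive cells. All 7 genes lie on mouse chromosome 3.

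The deposited intervals, read as 2 SD of a Poisson count, imply sums of 23543141 to 27229145 fragments per library. For some genes this reading fails. Lcp1 implied 2239 to 2259 fragments in every library while its level ran from 259 to 338 FPKM, so the sum is not a measured depth. Each interval comes from 1 library and leaves out the spread between libraries. Across genes, the IL-15C libraries correlated with each other at r = 0.991 to 0.994 and the IL-2C libraries at 0.996 to 0.997. Libraries of different treatments correlated at 0.990 to 0.995, a range that holds that of the IL-15C libraries. IL-15C replicates 1 and 2 lay at the opposite ends of the second principal component. In limma 169 genes rose and 464 fell in IL-15C, and 64.7% of tested genes had a change below 0. NK markers were abundant: Ncr1, the gene of NKp46, averaged 779 FPKM in IL-15C and 811 FPKM in IL-2C. Of the 10 NK markers, all tested, 0 rose and 0 fell, where 1.72% of all tested genes rose and 4.72% fell. In 3 of the 10 all IL-15C values lay below all IL-2C values, and in 0 above, against 25.1% and 8.15% of all tested genes. These were Klrd1, Klrk1 and Eomes (limma adjusted p = 0.0512, 0.0591 and 0.0755). The 8 T cell markers summed to 64.7 to 87.7 FPKM in IL-15C and 66.3 to 71.8 FPKM in IL-2C, with Cd4, Cd8a, Cd8b1 and Cd5 under 1 FPKM on average. The 11 B cell markers summed to 11.9 to 49.7 FPKM in IL-15C and 21.7 to 74.9 FPKM in IL-2C, the 10 red cell and platelet markers to 3.15 to 24.4 FPKM in IL-15C and 5.37 to 6.39 FPKM in IL-2C, and the 8 ILC1 markers to 33.0 to 48.1 FPKM in IL-15C and 37.1 to 40.9 FPKM in IL-2C. Their part in the changes of the S100 genes was not tested.

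Levels are given in FPKM (fragments per kilobase of transcript relative to the mapped fragments of a library), a unit corrected for transcript length. S100a10 was the highest of the 7 genes, at 547 to 636 FPKM over the 6 libraries and at rank 65 to 82 among all genes of a library. S100a6 followed at rank 84 to 134, S100a11 at rank 120 to 159, S100a4 at rank 218 to 489 and S100a13 at rank 526 to 627. S100a1 lay far lower, at rank 3052 to 4534, and S100a3 was at the edge of detection. This order was the same in all 6 libraries, and within each treatment no 2 neighbours in the order overlapped. The summed level of the 7 genes was 1932, 1894 and 1796 FPKM in IL-15C and 1605, 1423 and 1617 FPKM in IL-2C.

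S100a4, S100a6, S100a1 and S100a11 were higher in IL-15C, and S100a10 and S100a13 did not pass the test. The mean of S100a4 was 1.78-fold that of IL-2C, that of S100a6 1.36-fold, that of S100a1 1.34-fold and that of S100a11 1.21-fold. Calls are those of limma on log2(FPKM + 1) at a Benjamini-Hochberg adjusted p under 0.05, over all 9831 genes with a mean of at least 1 FPKM. By that rule 4 of the 6 tested S100 genes rose and 0 fell, while 1.72% of all tested genes rose and 4.72% fell. The median log2 change of the 6 tested S100 genes was 0.34, against -0.04 over all tested genes. The S100 genes were chosen with earlier results of these data known. These shares and medians therefore describe the genes and are not a test of the list. All 3 IL-15C values lay above all 3 IL-2C values in the same 4 genes, and in 8.15% of all tested genes; the reverse held in 25.1% of all tested genes and in 0 of the 6. Whether the libraries of a treatment are separate animals is not in the labels, and the p-values reflect only the spread between these libraries, which may be technical. In sorted bulk cells, more cells with a transcript and more transcript per cell cannot be told apart.

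**Figure D1:**
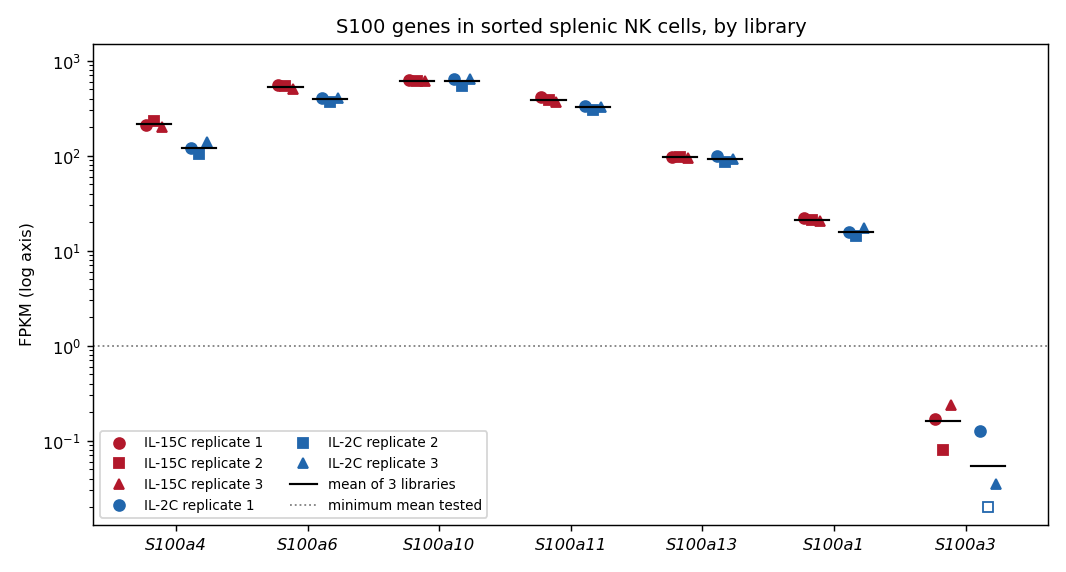
FPKM of the 7 S100 genes in each library, on a log axis, with IL-15C libraries left of IL-2C libraries, symbols for replicate numbers and a bar for the mean of 3 libraries; the open symbol marks a library listed at 0, drawn at the bottom. The 3 IL-15C libraries lie above the 3 IL-2C libraries for S100a4, S100a6, S100a11 and S100a1, and the treatments overlap for S100a10, S100a13 and S100a3.

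The windows around the start sites of the 4 genes that rose are printed here because they moved in the same direction, and S100a1 also because it stands head to head with S100a13, which did not pass. Each window runs 5′ to 3′ on the strand of its gene, from 250 bases before the RefSeq start to 50 bases after it (RefSeq, GRCm38.p6, the build of mm10). The motifs searched on both strands were TTCNNNGAA, the GAS element bound by STAT factors, TGANTCA, the AP-1 element, GGGCGG, the Sp1 box, and TATAAA, the TATA box. Capitals mark matches to these motifs in S100a4 and S100a11, and in S100a1 the 104 bases that separate it from S100a13 in the authors' tables.
S100a4, chr3:90603520-90603819, plus strand: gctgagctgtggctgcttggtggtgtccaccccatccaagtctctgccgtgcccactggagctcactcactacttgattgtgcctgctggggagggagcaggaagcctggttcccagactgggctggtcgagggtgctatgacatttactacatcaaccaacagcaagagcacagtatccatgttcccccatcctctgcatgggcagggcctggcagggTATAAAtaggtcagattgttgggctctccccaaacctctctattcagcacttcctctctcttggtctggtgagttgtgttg
S100a6, chr3:90612644-90612943, plus strand: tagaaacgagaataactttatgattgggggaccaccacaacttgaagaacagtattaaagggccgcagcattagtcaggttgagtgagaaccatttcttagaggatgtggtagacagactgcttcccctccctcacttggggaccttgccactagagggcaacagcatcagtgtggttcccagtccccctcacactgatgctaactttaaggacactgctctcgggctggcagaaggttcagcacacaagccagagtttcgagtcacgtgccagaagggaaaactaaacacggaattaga
S100a11, chr3:93520246-93520545, plus strand: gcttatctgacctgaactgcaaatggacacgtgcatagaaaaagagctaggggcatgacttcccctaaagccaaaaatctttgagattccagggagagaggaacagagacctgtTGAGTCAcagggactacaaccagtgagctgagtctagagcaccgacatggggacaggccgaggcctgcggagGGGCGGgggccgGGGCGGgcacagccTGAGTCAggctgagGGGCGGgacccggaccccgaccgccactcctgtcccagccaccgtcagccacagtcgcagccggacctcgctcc
S100a1, chr3:90514281-90514580, minus strand: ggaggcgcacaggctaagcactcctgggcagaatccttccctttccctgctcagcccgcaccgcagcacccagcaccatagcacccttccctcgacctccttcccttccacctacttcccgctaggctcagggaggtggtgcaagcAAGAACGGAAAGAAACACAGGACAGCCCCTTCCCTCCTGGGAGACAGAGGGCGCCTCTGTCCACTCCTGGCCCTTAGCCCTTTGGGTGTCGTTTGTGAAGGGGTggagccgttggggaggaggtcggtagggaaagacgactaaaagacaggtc

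The S100a4 window held TATAAA 31 bases before the start, a motif found in 13.6% of 32851 such windows. The S100a11 window held TGAGTCA at 136 and at 38 bases before the start, where 7.81% of windows hold an AP-1 match, and GGGCGG at 64, 52 and 24 bases before it, where 35.7% do. None of these matches overlapped. The windows of S100a6, S100a1 and S100a13 held none of the 4 motifs, and TTCNNNGAA was in none of the windows of the 6 S100 genes with an entry, against 8.30% of all windows. The S100a1 and S100a13 windows share 204 bases. G and C made up 55.3% of the S100a4 window, 49.3% of that of S100a6, 61.7% of that of S100a11 and 61.0% of that of S100a1, against a median of 52.7%.

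S100a4 encodes a protein also called metastasin or fibroblast-specific protein, which binds non-muscle myosin IIA and is tied to cell motility. It had 213, 233 and 199 FPKM in IL-15C and 119, 103 and 139 FPKM in IL-2C. The lowest IL-15C library stood well above the highest IL-2C library, IL-2C replicate 3. The means were 215 ± 17.2 FPKM in IL-15C and 121 ± 18.1 FPKM in IL-2C (SD, n = 3 each). The log2 change was 0.83 ± 0.10 (SE), with a limma adjusted p of 0.00608, and S100a4 held place 13 when all tested genes were ordered from the largest rise down. The deposited intervals, read as 2 SD of a Poisson count, imply 3433, 3994 and 3503 fragments in IL-15C, against 1916, 1982 and 2695 in IL-2C, so counting error was small beside the spread of the libraries. S100a4 passed with each of the 6 libraries left out in turn, with log2 changes of 0.73 to 0.94 and adjusted p-values of 0.0027 to 0.0454. It lies at 90603770 to 90606045 on chromosome 3 (mm10, plus strand). The GENCODE gene Gm42674 overlaps it and S100a3 on the same strand and has no row in the tables.

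S100a6 encodes calcyclin, which binds annexin A11 and the ubiquitin-ligase adaptor calcyclin-binding protein. Its level reached 549, 541 and 508 FPKM in IL-15C, against 401, 367 and 405 FPKM in IL-2C. The gap between the treatments was wider than the range within either. Means were 533 ± 21.7 FPKM in IL-15C and 391 ± 20.6 FPKM in IL-2C (SD, n = 3 each), a log2 change of 0.45 ± 0.06 (limma adjusted p = 0.0096). Without IL-2C replicate 2, the library with the lowest S100a6 level, the change was 0.40 and the adjusted p 0.0521; the call held with each other library left out. The gene starts 6.85 kb beyond the end of S100a4, at 90612894 to 90614414 on the plus strand, with S100a5 between them.

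S100a11 encodes calgizzarin, a partner of annexin A1 in membrane organisation and repair. It had 419, 384 and 365 FPKM in IL-15C and 334, 306 and 328 FPKM in IL-2C. The treatments did not overlap, but the lowest IL-15C library and the highest IL-2C library were close. The log2 change was 0.27 ± 0.06 (limma adjusted p = 0.0419). The call ended with any 1 of the 6 libraries left out, at adjusted p-values of 0.0523 to 0.145, while the change stayed between 0.22 and 0.31. S100a11 lies at 93520496 to 93526288, 2.82 Mb beyond S100a9.

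S100a1 is best known from heart and skeletal muscle, where its protein regulates calcium release and uptake. In these NK cells it had 22.2, 20.8 and 20.4 FPKM in IL-15C and 15.8, 14.2 and 17.4 FPKM in IL-2C. The intervals imply 476, 477 and 473 fragments in IL-15C, against 336, 360 and 449 in IL-2C. IL-2C replicate 3, the library with the largest sum of implied fragments, thus came nearer to the IL-15C libraries in fragments than in FPKM. In FPKM it was the highest IL-2C library, at 17.4 against 20.4 in the lowest IL-15C library. The log2 change was 0.40 ± 0.07 (limma adjusted p = 0.0189). Leaving out IL-2C replicate 1 gave a change of 0.40 and an adjusted p of 0.0783, and leaving out IL-2C replicate 2 gave 0.33 and 0.0671. S100a1 lies on the minus strand at 90511034 to 90514330, between Chtop and S100a13.

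S100a10, whose protein p11 pairs with annexin A2, had 631, 617 and 610 FPKM in IL-15C and 635, 547 and 636 FPKM in IL-2C. IL-2C replicate 2 was low, and the other 2 IL-2C libraries lay above all 3 IL-15C libraries. The log2 change was 0.03 ± 0.07 (limma adjusted p = 0.788), with a 95% interval of -0.12 to 0.19, and without IL-2C replicate 2 it was -0.039. S100a13, whose protein takes part in the release of FGF1 and interleukin-1 alpha, had 97.7, 97.7 and 93.7 FPKM in IL-15C and 99.9, 85.0 and 91.5 FPKM in IL-2C. The highest of the 6 values was in IL-2C. Its log2 change was 0.07 ± 0.06 (adjusted p = 0.5), with a 95% interval of -0.07 to 0.20. Neither interval reaches the changes of S100a6 or S100a4.

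S100a3, a gene best known from the hair follicle, had 0.168, 0.0794 and 0.235 FPKM in IL-15C, against 0.128 FPKM in IL-2C replicate 1 and 0.0348 FPKM in IL-2C replicate 3, and was listed at 0 in IL-2C replicate 2. These values rest on 4, 2 and 6 implied fragments in IL-15C, against 3, 0 and 1 in IL-2C. The treatments overlapped, and the exact two-sided permutation p on FPKM was 0.2, where 3 against 3 libraries cannot go below 0.1. A difference was not detectable at this depth.

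**Figure D2:**
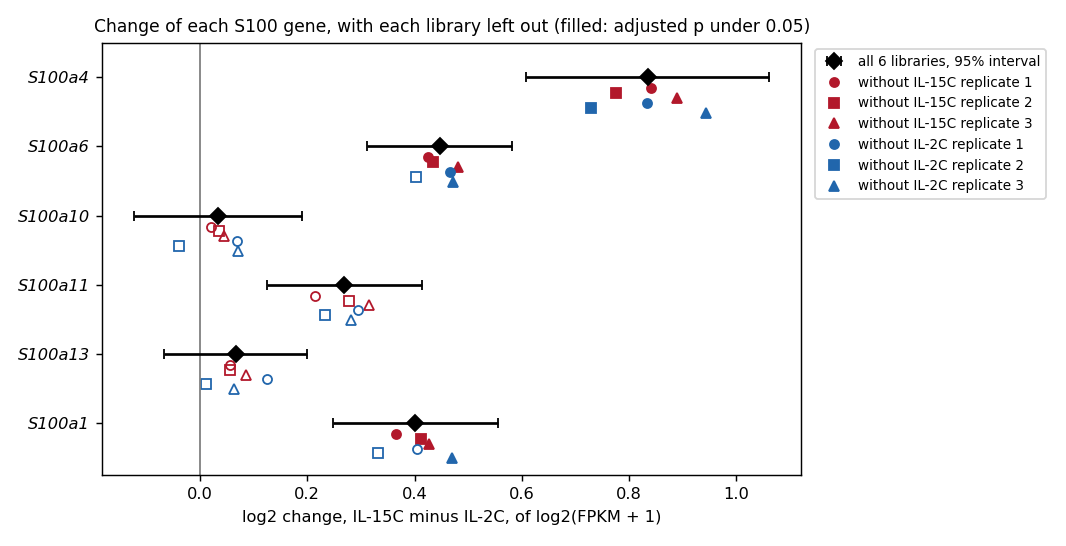
Log2 change of the 6 tested S100 genes, IL-15C minus IL-2C, with all 6 libraries (diamond with 95% interval) and with each library left out (filled where the limma adjusted p was under 0.05). S100a4 is filled in all 6 omissions, S100a6 in 5, S100a1 in 4 and S100a11 in 0, and the intervals of S100a10 and S100a13 span 0.

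The authors' deposited table also gives 1 value per treatment, scaled apart from the libraries; in it S100a4 was 291 FPKM in IL-15C (interval 247 to 336) and 159 FPKM in IL-2C (134 to 184). In the authors' deposited table, the level of S100a6 was 722 FPKM in IL-15C (614 to 831) and 514 FPKM in IL-2C (437 to 591). The authors' intervals did not overlap for these 2 genes and overlapped for the other 5. The values pool the same libraries, and the share of all genes whose intervals do not overlap was not counted.

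Ratios of 1 gene to another within a library do not depend on how libraries were scaled. The ratio of S100a4 to S100a10 was 0.338, 0.378 and 0.326 in IL-15C, against 0.188, 0.189 and 0.219 in IL-2C. The ratio of S100a4 to S100a6, its neighbour in the cluster, was 0.388, 0.43 and 0.391 in IL-15C, against 0.298, 0.281 and 0.344 in IL-2C. These ratios did not overlap and differed by 0.39 on the log2 scale. The ratio of S100a6 to S100a10 was 0.87, 0.878 and 0.833 in IL-15C, against 0.631, 0.671 and 0.636 in IL-2C. For the head-to-head pair, the ratio of S100a1 to S100a13 was 0.228, 0.213 and 0.217 in IL-15C, against 0.158, 0.167 and 0.19 in IL-2C. Of the 15 pairs among the 6 genes, 12 had ratios that did not overlap between treatments. The pairs share genes, 4 of which already lay apart between treatments, so the 12 are not separate results. The share over all pairs of tested genes was not computed. Each of these 12 had an exact two-sided permutation p of 0.1, the smallest that 3 against 3 libraries allow, and a Benjamini-Hochberg value of 0.125 over the 15 pairs, so none could pass. The 3 pairs that overlapped were S100a6 with S100a1, S100a1 with S100a11 and S100a13 with S100a10, with differences of 0.02, 0.15 and 0.03 on the log2 scale.

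As a share of the summed level of the 7 genes, S100a4 took 11.02%, 12.3% and 11.07% in IL-15C, against 7.44%, 7.25% and 8.62% in IL-2C. S100a6 took 28.4%, 28.6% and 28.3% in IL-15C, against 24.96%, 25.8% and 25.03% in IL-2C. S100a10 took 32.7%, 32.6% and 33.95% in IL-15C, against 39.6%, 38.4% and 39.4% in IL-2C. S100a11 held between 20.3% and 21.7% in all 6 libraries. The share of S100a10 was lower in all 3 IL-15C libraries, while its level overlapped between treatments.

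**Figure D3:**
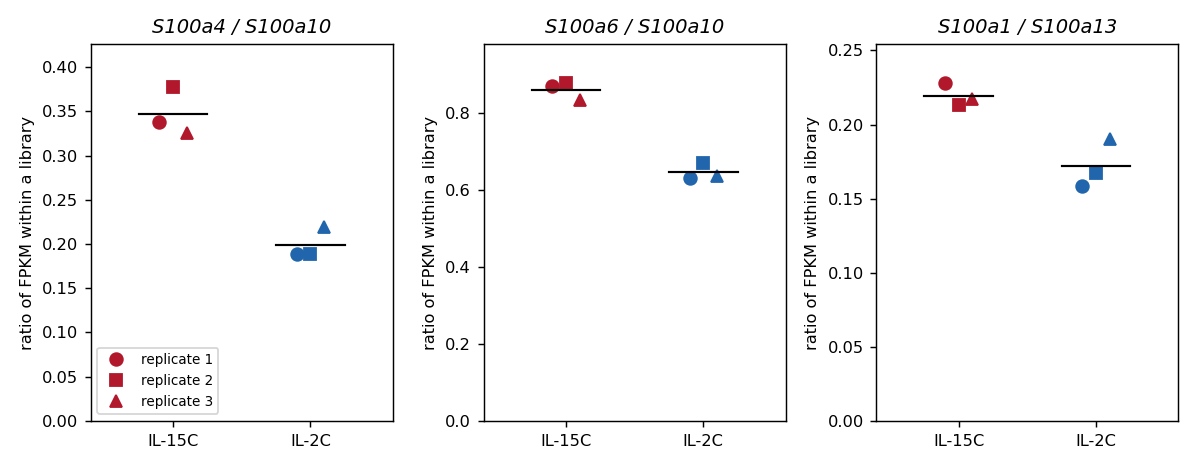
Ratio of FPKM within each library for 3 pairs of S100 genes, IL-15C left of IL-2C, with bars for the mean of 3 libraries. In each pair the 3 IL-15C ratios lie above the 3 IL-2C ratios.

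Along chromosome 3 the genes that rose did not form an unbroken run. S100a1 rose and S100a13, 104 bases away on the other strand, did not pass. The nearest gene on the far side of S100a1, Chtop, had 55.7 ± 0.684 FPKM in IL-15C and 59.8 ± 0.876 FPKM in IL-2C (SD, n = 3 each) and a log2 change of -0.10 ± 0.04 (limma adjusted p = 0.138). Between S100a13 and S100a4 lie S100a14, S100a16, S100a2 and S100a3, each under 1 FPKM, and between S100a4 and S100a6 lies S100a5, listed at 0 in all 6 libraries. S100a7a, the next gene after S100a6, averaged 0.366 ± 0.144 FPKM in IL-15C and 0.364 ± 0.149 FPKM in IL-2C. Next to each other in a separate block, S100a11 rose and S100a10 did not pass, and the genes on either side of that pair, Tchhl1 and Tdpoz2, were listed at 0 in all 6 libraries. The labels do not say whether the libraries kept strand. S100a1 and S100a13 do not overlap in the authors' coordinates, and whether reads of this close pair were assigned cleanly was not tested.

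**Figure D4:**
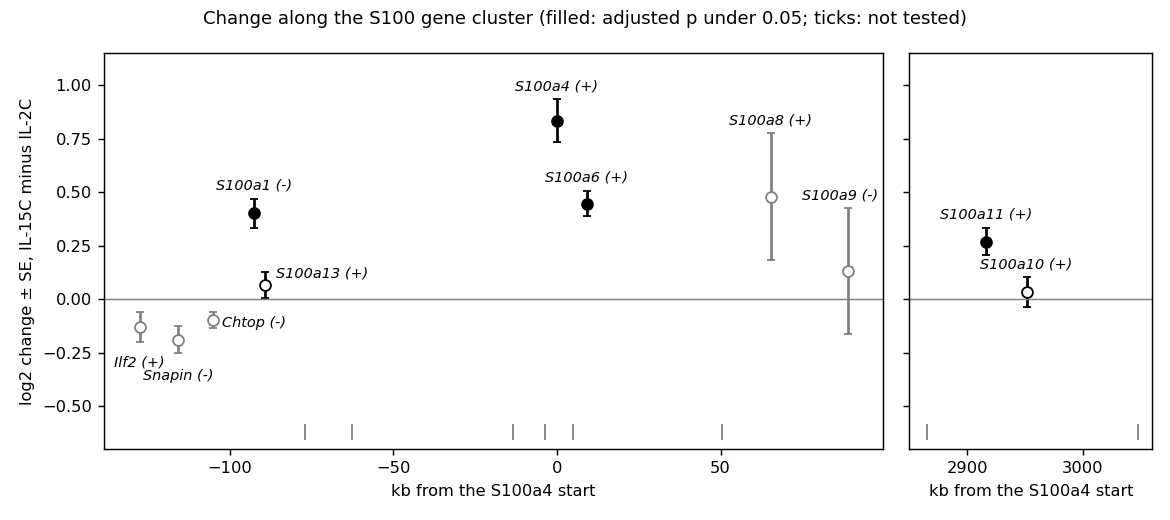
Log2 change with SE, IL-15C minus IL-2C, of genes of the S100 cluster against the distance of the gene's lower coordinate from the start of S100a4, with strand in brackets; black symbols are the followed S100 genes, filled symbols passed the test and ticks are genes under 1 FPKM. S100a1, S100a4, S100a6 and S100a11 are filled, with S100a13 and S100a10 near 0 beside S100a1 and S100a11.

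Among 23 tested genes for partners of S100 proteins, the test called 2 higher and 1 lower and left 20 uncalled, where it called 1.72% of all tested genes higher and 4.72% lower. Their median log2 change was 0.06, against -0.04 over all tested genes. Anxa5, which encodes the phosphatidylserine-binding annexin A5, had 22.9, 20.8 and 20.2 FPKM in IL-15C and 16.8, 15.9 and 16.2 FPKM in IL-2C. Its log2 change was 0.36 ± 0.05 (limma adjusted p = 0.0112). Myh9, the heavy chain of non-muscle myosin IIA and a target of S100A4, had 197, 189 and 179 FPKM in IL-15C and 165, 162 and 157 FPKM in IL-2C, a change of 0.22 ± 0.05 (adjusted p = 0.0365). Sugt1, which encodes the chaperone adaptor SGT1, a binder of S100A6, fell by 0.18 ± 0.04 (adjusted p = 0.0479).

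Unlike Anxa5, the annexin genes Anxa2, Anxa1 and Anxa11 did not pass. Anxa2, the partner of S100A10, had 437, 401 and 402 FPKM in IL-15C and 401, 369 and 378 FPKM in IL-2C, a log2 change of 0.11 ± 0.06 (limma adjusted p = 0.254). Anxa1, the partner of S100A11, changed by -0.02 ± 0.05 and Anxa11, a partner of S100A6, by 0.09 ± 0.05. The ratio of S100a11 to Anxa1 was 5.51, 4.60 and 4.41 in IL-15C, against 4.05, 3.83 and 3.93 in IL-2C, without overlap. The ratio of S100a10 to Anxa2 was 1.44, 1.54 and 1.52 in IL-15C, against 1.58, 1.48 and 1.68 in IL-2C, with overlap. Cacybp, the calcyclin-binding protein gene, had a log2 change of -0.03 ± 0.05. Ahnak, a large scaffold protein bound by the S100A10 and annexin A2 complex, had 0.08 ± 0.07. Ager, which encodes RAGE, a receptor for secreted S100 proteins, was low at 1.41, 1.67 and 1.62 FPKM in IL-15C and 1.98, 2.22 and 1.85 FPKM in IL-2C, with a change of -0.23 ± 0.07 that did not pass (adjusted p = 0.0889). Sept2, a septin gene, had -0.10 ± 0.04. The ratios of S100a6 to Anxa11, S100a6 to Cacybp and S100a4 to Myh9 also did not overlap between treatments. They differed by 0.35, 0.48 and 0.62 on the log2 scale. S100a11, S100a6 and S100a4 already lay apart between treatments by themselves, so their ratios to partners are not separate results. The share over all pairs of tested genes was not computed.

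Of 28 other tested genes for EF-hand calcium-binding proteins, 0 rose and 0 fell in limma, and their median log2 change was -0.01. By unadjusted p under 0.05, 2 of the 28 were higher and 5 lower, where 6.48% of all tested genes were higher and 20.4% lower. The smallest adjusted p-values belonged to Rcn2, an endoplasmic reticulum protein gene, with -0.19 ± 0.06 (adjusted p = 0.0855), and to Lcp1, the actin-bundling protein L-plastin, with 0.20 ± 0.07 (adjusted p = 0.111). Plscr1, Micu2 and Ppp3r1 followed with 0.13, -0.12 and -0.11.

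Profiles over the 6 libraries were compared by the root mean square difference of log2(FPKM + 1) after each gene's own mean was removed, among 7555 other genes with a mean of at least 5 FPKM. Thy1, Lpar5 and Gzmk were most like S100a4, at differences of 0.10, 0.13 and 0.14. Most like S100a6 were Ccdc64, S100a1 and Anxa5, at 0.049, 0.052 and 0.063, and most like S100a1 were Ccdc64, S100a6 and Top2a, at 0.040, 0.052 and 0.058. S100a1 and S100a6 were thus each second nearest to the other at mean levels in IL-15C of 21.1 and 533 FPKM. F2r, Themis2 and Napsa were most like S100a11, at 0.029, 0.029 and 0.031. The nearest to S100a10 were Ccnh, 2810004N23Rik and Swi5, and to S100a13 Rilpl2, 2410015M20Rik and Gzma, all of which had small changes.

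Monocytes and neutrophils also express S100 genes, so their markers were set beside these results. The granulocyte genes S100a8 and S100a9 encode the calprotectin subunits. S100a8 had 42.6, 16.3 and 22.0 FPKM in IL-15C and 21.8, 19.1 and 12.97 FPKM in IL-2C, and S100a9 had 46.0, 17.2 and 21.3 FPKM in IL-15C and 28.0, 24.2 and 18.9 FPKM in IL-2C. IL-15C replicate 1 was the high library for both, and the other 5 overlapped between treatments. The summed level of 14 neutrophil markers, which include these 2 genes, was 118, 44.2 and 59.2 FPKM in IL-15C and 64.6, 58.8 and 43.7 FPKM in IL-2C. Of its 7 tested genes 1 rose and 0 fell, where 1.72% of all tested genes rose and 4.72% fell. The gene that rose was Retnlg, a neutrophil gene, with 2.61, 1.498 and 2.28 FPKM in IL-15C and 1.40, 0.976 and 0.923 FPKM in IL-2C (limma adjusted p = 0.0445). In 3 of the 14 markers all IL-15C values lay above all IL-2C values, and in 0 below. Over all tested genes these shares were 8.15% above and 25.1% below. The 3 markers were Retnlg and a pair of genes with a mean under 1 FPKM. Mpo, the myeloperoxidase gene, had 0.771, 0.272 and 0.48 FPKM in IL-15C and 0.159, 0.148 and 0.151 FPKM in IL-2C. Csf3r, the G-CSF receptor gene, had 1.23, 0.995 and 1.21 FPKM in IL-15C and 0.739, 0.834 and 0.701 FPKM in IL-2C. Elane, the neutrophil elastase gene, was under 1 FPKM in every library and overlapped. The part of these cells in the S100 results was not tested. Without IL-15C replicate 1 the log2 change of S100a4 was 0.84, that of S100a6 0.42 and that of S100a1 0.37, each past the test, and that of S100a11 was 0.22 (limma adjusted p = 0.0636).

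The list of 14 monocyte, macrophage and dendritic cell markers was dominated by Ccr2, a chemokine receptor gene, with 220, 240 and 239 FPKM in IL-15C and 186, 179 and 215 FPKM in IL-2C. All 3 IL-15C values of Ccr2 lay above all 3 IL-2C values, with a log2 change of 0.27 ± 0.07 that did not pass (limma adjusted p = 0.0547). The sum of the 14 markers was 252, 263 and 262 FPKM in IL-15C and 212, 202 and 233 FPKM in IL-2C, without overlap. The other marker without overlap was C1qc, a complement gene, with 0.163, 0.215 and 0.135 FPKM in IL-15C, against 0.0524 FPKM in IL-2C replicate 2, 0.0673 FPKM in IL-2C replicate 3 and a listing at 0 in IL-2C replicate 1. Without Ccr2, the sum of the other 13 was 31.4, 22.5 and 22.3 FPKM in IL-15C and 25.6, 23.7 and 17.6 FPKM in IL-2C. Lyz2, the lysozyme gene of myeloid cells, had 25.5, 15.1 and 15.5 FPKM in IL-15C and 20.0, 18.1 and 12.2 FPKM in IL-2C, overlapping between treatments. Cd68, another marker of the list, had 4.41, 5.87 and 5.40 FPKM in IL-15C and 4.11, 4.31 and 4.41 FPKM in IL-2C. Its log2 change of 0.23 ± 0.08 did not pass (limma adjusted p = 0.115). By unadjusted p under 0.05, 2 of the 3 tested genes of the list were higher and 0 lower, where 6.48% of all tested genes were higher and 20.4% lower. Csf1r, the receptor that defines monocytes and macrophages, was under 1 FPKM in every library, as were Adgre1 and C1qa. The part of such cells in the S100 results was not tested.

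**Figure D5:**
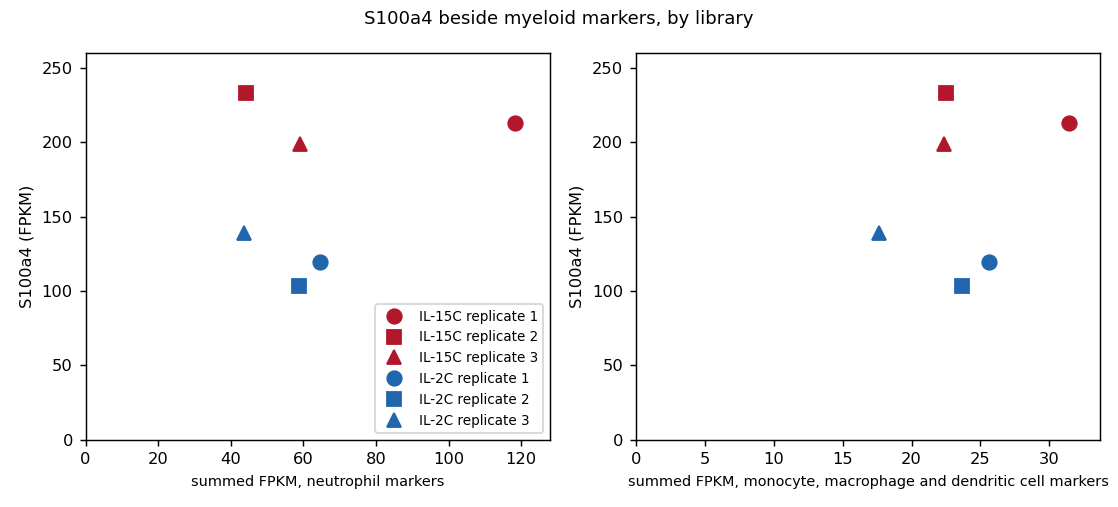
S100a4 FPKM of each library against the summed FPKM of neutrophil markers (left) and of monocyte, macrophage and dendritic cell markers without Ccr2 (right), red for IL-15C and blue for IL-2C. The IL-15C libraries lie at 199 to 233 FPKM of S100a4 and the IL-2C libraries at 103 to 139. Both marker sums shown overlap between treatments, and IL-15C replicate 1 has the highest of both. With Ccr2 the monocyte, macrophage and dendritic cell sum does not overlap. It is then 252 to 263 FPKM in IL-15C and 202 to 233 FPKM in IL-2C.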

How the data were processed

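RNA of sorted NK cells was isolated with a Qiagen kit and made into Illumina libraries, per the labels' protocols. TopHat2 2.0.13 and Cufflinks 2.2.1 with mm10 are named in the submitters' processing notes, with no gene annotation. The authors' tables give FPKM with interval bounds for each library and, in a pooled table, for each treatment, per the file headers. No count model was used on FPKM.

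Repeated rows (280 genes) were added up, and 10 genes with a failed estimate were left out. The test was limma 3.58.1 (R 4.3.3) with an intensity trend on log2(FPKM + 1), two-sided, for genes with a mean of at least 1 FPKM, adjusted by Benjamini-Hochberg over all of them; this scale understates changes of low genes. The fit was checked on simulated normal values drawn with its own variances, which cannot show whether those variances suit the data. Tables, exact tests and plots used Python 3.11.15, pandas 2.3.3, scipy 1.17.1 and matplotlib 3.10.9.

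The S100 genes and the lists of partners, EF-hand genes and markers were chosen with earlier results of these data known. Named were the S100 genes, up to 5 members of the partner and EF-hand lists with the smallest adjusted p, 6 direct partners, 3 genes of most similar profile and the nearest neighbours. Alternatives were 2 pseudocounts, 2 filters, 3 scalings, 2 models, a replicate block and each library left out. Replicate numbers were not taken as pairs.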

Additional observations from a re-analysis of the deposited data

How the results depend on the processing

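S100a4, S100a6, S100a1 and S100a11 kept their sign in all 16 alternatives run and their call under both other pseudocounts, a mean of at least 5 FPKM, median, TPM and quantile scaling, limma without the trend, array weights and the replicate block. With no filter, 16313 genes were tested, 6 were called higher, 9 lower and 0 of the S100 genes; their adjusted p-values were then 0.0649, 0.0649, 0.0764 and 0.113. Leaving out 1 library gave 1 to 3 S100 genes called higher, against 4 with all libraries; omission of IL-2C replicate 2 left 1, omission of IL-2C replicate 1 left 2, and every other omission left 3. No S100 gene was called lower in any alternative. Over all genes, leaving out 1 library gave 14 to 175 higher and 15 to 572 lower, median scaling 325 and 207, quantile scaling 307 and 269, and array weights 440 and 1667; the cause was not tested. With 1 library left out, the change of S100a10 ranged from -0.039 to 0.070, reversed for IL-2C replicate 2; the difference in log2 ratio ranged from -0.022 to 0.054 for S100a6 to S100a1 and from -0.0064 to 0.058 for S100a13 to S100a10, both reversed for IL-2C replicate 3.

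Replicate numbers are shared between the treatments, but deviations of same-numbered libraries correlated at r = -0.03, -0.16 and -0.02, so the numbers were not taken as pairs. Libraries of different numbers correlated at r = -0.14 to 0.18. Such correlations cannot show how libraries were matched in the experiment. With the replicate block 171 genes were called higher and 346 lower, and 4 S100 genes higher and 0 lower. Depth limits S100a3 alone among the 7 genes, with at most 6 implied fragments in a library.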

Other observations

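S100 genes outside the 7 were mostly at the edge of detection in these NK cells. S100z, a gene on chromosome 13, had 0.351 and 0.174 FPKM in IL-15C replicates 2 and 3, from 2 and 1 implied fragments, and was listed at 0 in the other 4 libraries. S100a14 had 0.342, 0.252 and 0.274 FPKM in IL-15C and 0.166, 0.318 and 0.206 FPKM in IL-2C, overlapping between treatments. S100a2, which was left off the lists and is named after its values were seen, rested on 1 implied fragment in each library but IL-2C replicate 1, where it was listed at 0. S100b, a gene known from glia, had at most 4 implied fragments in a library, S100a16 had 4 in IL-2C replicate 2 and was listed at 0 elsewhere, and S100g had 1 in IL-2C replicate 3 and was listed at 0 elsewhere.

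S100pbp, the gene of an S100P-binding protein on chromosome 4, was the other S100-named gene above 1 FPKM besides S100a8 and S100a9. It averaged 10.5 ± 0.108 FPKM in IL-15C and 11.3 ± 0.33 FPKM in IL-2C (SD, n = 3 each), lower in all 3 IL-15C libraries. Its log2 change of -0.09 ± 0.04 did not pass in limma (adjusted p = 0.203), and all 3 IL-15C values lay below all 3 IL-2C values in 25.1% of tested genes.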
